A study of Capra hircus with 12 samples.

Results

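A set of 9 miRNA names widely linked to the dermis and other mesenchyme (miR-21, miR-29a, miR-29b, miR-29c, miR-143, miR-145, miR-199a, miR-199b and miR-214) was looked up in small RNA libraries from the skin of cashmere goat embryos. Of the 9 names, 5 were found, each in 1 row, among the 649 miRNA rows of the table, so the group described here is miR-143, miR-21, miR-199a-3p, miR-29a and miR-29b. Only 151 rows carry a sheep miRNA name (prefix oar, Ovis aries) and 498 carry only a running identifier, and miR-29c, miR-145, miR-199b and miR-214 had no row by name. The tissue was skin of the mid flank of Inner Mongolia cashmere goat embryos, taken on embryonic day 45 (E45), 55 (E55) or 65 (E65), around the time when the primary hair follicles begin to form. For each stage the skin of 3 embryos was mixed before the RNA was extracted, and 1 library was made from the mixture. Each stage is therefore a single library with no replicate. No test between stages is possible, and the differences below describe these 3 pools. Differences between embryos, library preparations, sequencing runs (on GAIIx and NextSeq instruments, with no record of which library ran on which) and stages cannot be told apart.

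A miRNA is a short RNA that guides Argonaute proteins to messenger RNAs, mainly through its seed, bases 2 to 8 counted from the 5′ end, and lowers their translation and stability. miR-143 is made from the same primary transcript as miR-145 and is abundant in smooth muscle cells and fibroblasts, where it favours the contractile state. miR-199a and miR-214 are processed from a transcript antisense to the dynamin gene DNM3 and are typical of embryonic mesenchyme, and the miR-199a-3p sequence is shared with miR-199b-3p. The miR-29 family represses collagens and other matrix proteins, and miR-21 is a common miRNA of fibroblasts that also occurs in epithelium and blood cells, so it does not mark the dermis alone.

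The sequences of the 5 miRNAs are shown as listed in the deposited table, 5′ to 3′ in DNA letters, with the seed in capitals, because the seed decides which of them form a family.
miR-143: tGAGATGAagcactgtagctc
miR-21: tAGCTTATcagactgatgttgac
miR-199a-3p: aCAGTAGTctgcacattggtt
miR-29a: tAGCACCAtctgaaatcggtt
miR-29b: tAGCACCAtttgaaatcagtgt
The 5 sequences fall into 4 seed groups, as miR-29a and miR-29b share theirs. None of the 498 unnamed rows has any of these seeds at bases 2 to 8, and the rows that share bases 2 to 7 are again only the miR-29 pair. miR-29c is known to have the same seed as the other miR-29 miRNAs, so no unnamed row has the seed of miR-29c or of miR-199b-3p at bases 2 to 8. The 7 bases of the miR-29 seed stand elsewhere in 2 further rows, both unnamed and more than 3 edits from miR-29a and miR-29b. miR-145, miR-214 and the other hairpin arms were not looked for among the unnamed rows. Over the 21 positions that both have, counted from the 5′ end, miR-29a and miR-29b differ by the substitutions C10T, G18A and T21G, with the miR-29a base given before the position. This pair is 3 edits apart, whereas the row nearest to miR-143 is 5 edits away and those nearest to miR-21 and miR-199a-3p are 8 edits away, so these 3 have no near copy in the table with which their reads could be divided. The row nearest to miR-143 is an unnamed one of 18 bases with 3, 11 and 4 reads in the E45, E55 and E65 libraries. Of the 5 members, 4 begin with T, as do 258 of all 649 rows (39.8%). All 5 are 21 to 23 bases long, as are 556 of all rows (85.7%).

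In the RefSeq annotation of the goat assembly ARS1.2, from which only gene order was taken, all 9 names match a gene. MIR143 and MIR145 are direct neighbours, between CSNK1A1 and IL17B, and MIR199A and MIR214 are direct neighbours within the span of DNM3. MIR199B lies within the span of DNM1, and MIR21 is next to VMP1. MIR29B and MIR29C are separated by a single annotated gene, while MIR29A lies on another chromosome. The neighbours MIR145, MIR214 and MIR29C have no row by name, and no member has its other hairpin arm listed by name, so the levels of cluster partners and of the arms of a hairpin could not be set side by side.

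Levels are given in RPM, the reads of a row scaled to the sum of all listed miRNA reads of its library. The step between the low values of a column is the worth of 1 read, and all 649 rows of each library came out as whole reads within a tolerance of 0.1 read. The sum is 2455491 reads for the E45 library, 4125742 for E55 and 2344798 for E65. They include 110 rows that share 47 sequences, none of them a member, and rows that repeat a sequence already listed hold 4.65% of the E45 sum, 3.95% of the E55 sum and 2.29% of the E65 sum. At these depths 3 reads, the floor set for the ratios over all rows below, correspond to 1.22, 0.727 and 1.28 RPM. Intervals are exact 95% intervals (Poisson for a level, binomial for a share or ratio). They cover counting error only, and since no molecular identifiers were reported the reads are not known to be independent molecules.

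miR-143 had the highest level of the named miRNAs in all 3 libraries, although at E55 miR-411a-5p, named here after its value was seen, had 82954 RPM, within the counting interval of miR-143. Its level was 67984 RPM at E45 (95% interval 67658 to 68310), 83128 at E55 (82850 to 83406) and 95670 at E65 (95275 to 96067). In each library only 1 row, an unnamed one, was more abundant, with 155265, 121797 and 135432 RPM. The 3 intervals of miR-143 do not overlap. The ratio of E55 to E45 was 1.22 (interval 1.22 to 1.23) and that of E65 to E55 was 1.15 (1.14 to 1.16). That of E65 to E45 was 1.41 (1.40 to 1.42), or 0.49 on the log2 scale. This log2 ratio became 0.99 with median scaling and 1.48 with upper-quartile scaling of the libraries.

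miR-21 had 30040 RPM at E45 (29823 to 30257), 32141 at E55 (31968 to 32314) and 52579 at E65 (52286 to 52873). It ranked 6th among all rows at E45, 5th at E55 and 4th at E65. The ratio of E55 to E45 was 1.07 (1.06 to 1.08) on the deposited values, or 0.10 on the log2 scale, which became 0.49 with median scaling and 0.66 with upper-quartile scaling of the libraries. The level was higher in the E65 library, with a ratio of 1.64 (1.62 to 1.65) to E55 and 1.75 (1.73 to 1.77) to E45. On the log2 scale these were 0.71 and 0.81. Median scaling took them to 0.82 and 1.31, and upper-quartile scaling to 1.14 and 1.80.

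miR-199a-3p had 32610 RPM at E45 (32385 to 32837), 22583 at E55 (22438 to 22729) and 27995 at E65 (27781 to 28210). Unlike miR-143 and miR-21, it was lowest in the E55 library, where the ratio to E45 was 0.693 (0.686 to 0.699), although upper-quartile scaling reversed this direction. The ratio of E65 to E55 was 1.24 (1.23 to 1.25) and that of E65 to E45 was 0.858 (0.850 to 0.867), a direction that both median and upper-quartile scaling reversed. Its rank moved from 5th at E45 to 8th at E55 and 9th at E65. As miR-199b-3p is known to have the same sequence, reads from any locus of either miRNA would fall into this row.

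miR-29a was far less abundant, with 292 reads or 119 RPM at E45 (106 to 133), 258 reads or 62.5 RPM at E55 (55.1 to 70.6) and 110 reads or 46.9 RPM at E65 (38.6 to 56.5). The E45 interval lies above both others, which overlap slightly. The ratio was 0.526 (0.443 to 0.624) for E55 to E45, 0.750 (0.595 to 0.941) for E65 to E55 and 0.394 (0.314 to 0.493) for E65 to E45. On the log2 scale the last 2 were -0.41 and -1.32, and upper-quartile scaling took them to 0.01 and -0.35. Its rank among all rows went from 221 at E45 to 235 at E55 and 249 at E65.

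miR-29b, which shares the seed of miR-29a, had only 14 reads at E45 (5.70 RPM, 3.12 to 9.57), 18 at E55 (4.36 RPM, 2.59 to 6.90) and 7 at E65 (2.99 RPM, 1.20 to 6.15). The 3 intervals overlap. Its ratios of 0.765 for E55 to E45 (0.360 to 1.66), 0.684 for E65 to E55 (0.242 to 1.72) and 0.524 for E65 to E45 (0.179 to 1.39) all have intervals that include 1, so a difference was not detectable at this depth. Within a library miR-29a had 20.9 times the reads of miR-29b at E45 (12.2 to 38.6), 14.3 times at E55 (8.89 to 24.6) and 15.7 times at E65 (7.38 to 40.0), and these intervals overlap too.

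**Figure D1:**
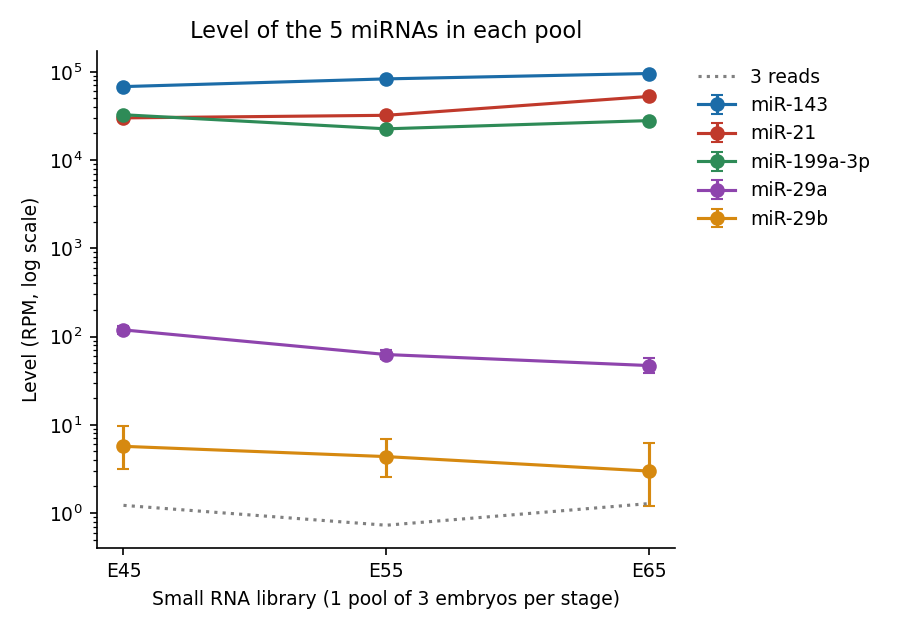
Level of each of the 5 miRNAs (RPM, log axis) in the E45, E55 and E65 libraries, with exact 95% Poisson intervals as bars (counting error only) and the level of 3 reads as a dotted line. miR-143, miR-21 and miR-199a-3p lie at 22583 RPM or above in every library, whereas miR-29a lies between 46.9 and 119 RPM and miR-29b between 2.99 and 5.70 RPM.

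Read levels of different miRNAs also depend on how well each sequence is ligated and amplified, which was not tested, so the order of the members is an order of reads. By reads, miR-143 was highest in every library and miR-29a and miR-29b were lowest. miR-199a-3p was above miR-21 at E45, and miR-21 was above miR-199a-3p at E55 and E65, with no overlap of the counting intervals in any library.

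Summed over the 5 rows, the group held 13.1% of the reads at E45 (13.0 to 13.1), 13.8% at E55 (13.8 to 13.8) and 17.6% at E65 (17.6 to 17.7). As a level compared between libraries, this sum was 130758, 137918 and 176294 RPM on the deposited scaling, in the order of stages. It was 108586, 149948 and 207020 with median scaling and 91297, 142451 and 244459 with upper-quartile scaling. miR-143 made up 52.0% of the sum at E45, 60.3% at E55 and 54.3% at E65. The share of miR-21 in the sum was 22.97%, 23.3% and 29.8%, and that of miR-199a-3p was 24.9%, 16.4% and 15.9%. Without miR-143 the other 4 rows held 6.28%, 5.48% and 8.06% of the reads, and without miR-143 and miR-21 the remaining 3 held 3.27%, 2.26% and 2.80%.

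**Figure D2:**
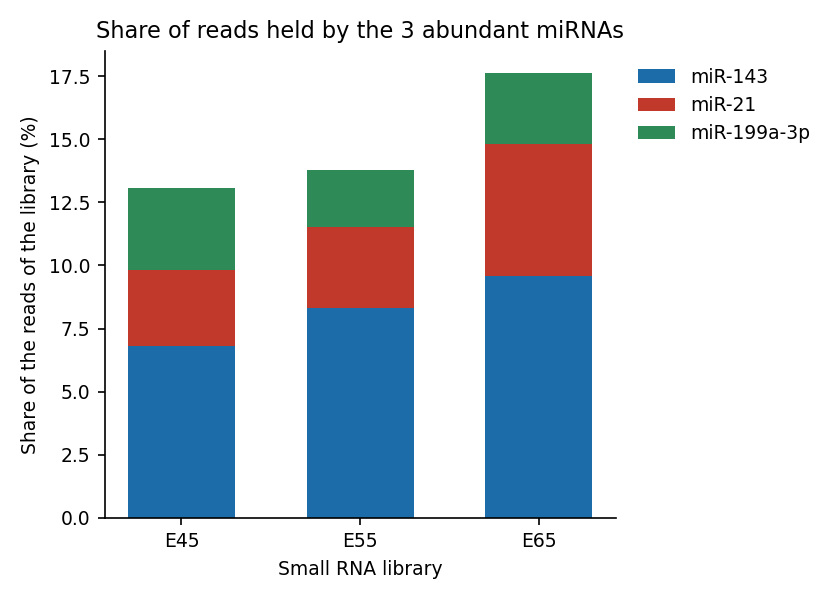
Share of the reads of each library (%, linear axis from 0) held by miR-143, miR-21 and miR-199a-3p, stacked, with 1 bar per library. The stack reaches 13.1% at E45, 13.8% at E55 and 17.6% at E65; miR-29a and miR-29b are too rare to be seen at this scale and are left out.

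A ratio between miRNAs of the same library does not depend on how the libraries are scaled to each other. The ratio of miR-21 to miR-199a-3p reads was 0.921 at E45 (0.912 to 0.930), 1.42 at E55 (1.41 to 1.44), and reached 1.88 at E65 (1.86 to 1.90), so it was higher in each later library. The ratio of miR-143 to miR-199a-3p was 2.08 at E45 (2.07 to 2.10), 3.68 at E55 (3.65 to 3.71) and 3.42 at E65 (3.39 to 3.45). That of miR-143 to miR-21 was 2.26 at E45 (2.24 to 2.28), 2.59 at E55 (2.57 to 2.60) and 1.82 at E65 (1.81 to 1.83). The ratio of miR-21 to miR-29a spanned the widest range of these, at 253 (225 to 284) at E45, 514 (455 to 583) at E55 and 1121 (930 to 1364) at E65. The 5 miRNAs therefore did not keep constant proportions across the 3 pools, and this holds without any choice of scaling.

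**Figure D3:**
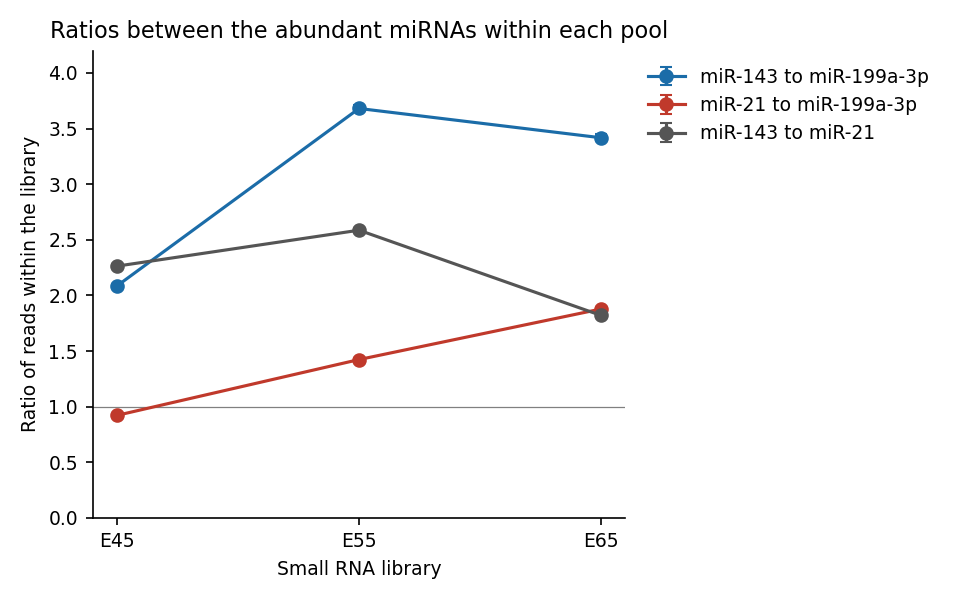
Ratio of reads between pairs of the 3 abundant miRNAs within each library (linear axis from 0, exact 95% intervals smaller than the points, grey line at 1). miR-21 to miR-199a-3p goes from 0.921 at E45 to 1.88 at E65, and miR-143 to miR-199a-3p is lowest at E45 with 2.08.

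To set the 5 miRNAs against the rest of the table, the log2 ratio of RPM + 1 was taken for every row with over 3 reads in at least 1 of the libraries compared. A 2-fold difference (a log2 ratio of at least 1 in either direction) was called. In E55 vs. E45 no member was called, where 4.79% of 605 rows were higher and 18.8% lower by 2-fold or more. In E65 vs. E55 again none was called, where 6.79% of 589 rows were higher and 18.0% lower. In E65 vs. E45 the only call was miR-29a, lower with a log2 ratio of -1.32, where 6.22% of 579 rows were higher and 29.0% lower. With 5 rows, 1 call is near what the share of all rows gives, and it is no result about the group. The call of miR-29a was lost with median scaling (-0.83) and with upper-quartile scaling (-0.35). Other scalings brought calls of a higher level in this comparison. miR-21 passed 2-fold with median scaling (1.31), with upper-quartile scaling (1.80) and without the 10 most abundant rows (1.03). miR-143 did so with upper-quartile scaling (1.48). The share of all rows past 2-fold under these scalings is not given here.

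On the deposited scaling, the median log2 ratio over all rows was below 0 in each comparison, -0.26 for E55 relative to E45, -0.14 for E65 relative to E55 and -0.48 for E65 relative to the E45 library. Upper-quartile scaling moves ratios by 0.56, 0.42 and 0.99 in the same order before the pseudocount is added, more than the size of these medians. Over the sheep-named rows alone it was 0.16, -0.52 and -0.42 in the same order, and over the 24 rows with a mean of at least 10000 RPM it was 0.25, -0.01 and 0.06. The median of the 5 members was -0.32, 0.20 and -0.22 in the same order, and both negative values turned positive with median scaling (0.0017 and 0.28) and with upper-quartile scaling (0.14 and 0.77). Each of the 3 on the deposited scaling is the value of its middle row, which was miR-29b, miR-143 and miR-199a-3p in turn, and the members ran in both directions. miR-21 lay above 69.3% of the rows in E55 vs. E45 (log2 ratio 0.10), above 88.6% of the rows in E65 vs. E55 (0.71) and above 92.9% in E65 vs. E45 (0.81). miR-143 lay above 78.0% of the rows in E55 vs. E45 (0.29), above 69.8% with E65 set against E55 (0.20) and above 88.3% against E45 (0.49). miR-199a-3p lay above 35.5% of the rows when E55 was set against E45 (-0.53), above 74.2% for E65 against E55 (0.31) and above 59.2% for E65 against E45 (-0.22). miR-29a lay above 20.5%, 39.2% and 21.1% of the rows in these comparisons.

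**Figure D4:**
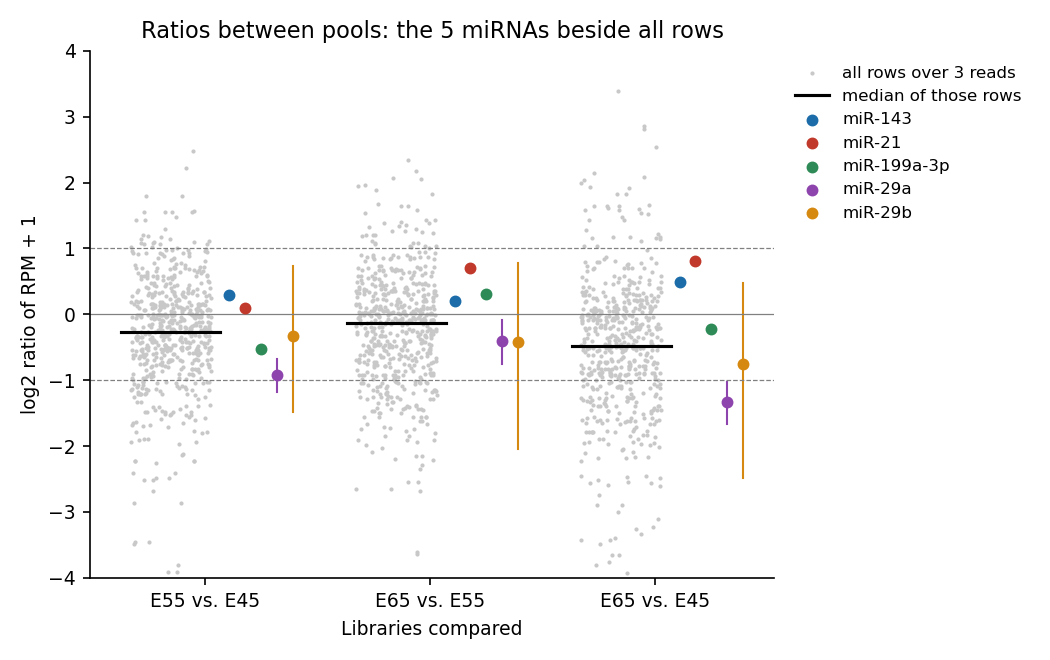
The log2 ratio of RPM + 1 for each comparison of libraries, with all rows over 3 reads in grey, their median as a black bar, the 5 miRNAs in colour with exact 95% counting intervals of their read ratios as lines, and dashed lines at 2-fold; 30 grey points beyond 4 in either direction are not drawn. Only miR-29a in E65 vs. E45, at -1.32, is past 2-fold, and miR-21 lies highest of the members in both comparisons with E65.

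Each of the 3 other scalings raises the ratios of every comparison, and a pseudocount cannot change a sign. Only a ratio below 0 on the deposited values could therefore change direction. In E65 vs. E45 the log2 ratio ran from 0.49 to 1.48 for miR-143 and from 0.81 to 1.80 for miR-21. Both were above 0 as deposited, so these alternatives could not test their direction. miR-29a, whose sign could have changed with the scaling, was lower in E65 under every scaling and pseudocount tried, from -1.34 to -0.35. The log2 ratio of miR-199a-3p in E65 vs. E45, -0.22 on the deposited values, became 0.28 with median scaling and 0.77 with upper-quartile scaling. Its lower level at E55 than at E45 (-0.53) became 0.03 with upper-quartile scaling, so no direction can be given for it in these comparisons with E45. In E65 vs. E55 the log2 ratio of miR-199a-3p ran from 0.31 to 0.73. It was above 0 as deposited, so the alternatives could not test this direction either. miR-29a in E65 vs. E55 also changed sign with upper-quartile scaling, from -0.41 to 0.01. miR-21 passed 2-fold in E65 vs. E45 with each of the 3 other scalings. Before the pseudocount is added, these raise every row of that comparison by 0.50 (median), 0.99 (upper quartile) and 0.22 (without the 10 most abundant rows). The share of all rows past 2-fold under them is not given here, so this does not set miR-21 apart.

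**Figure D5:**
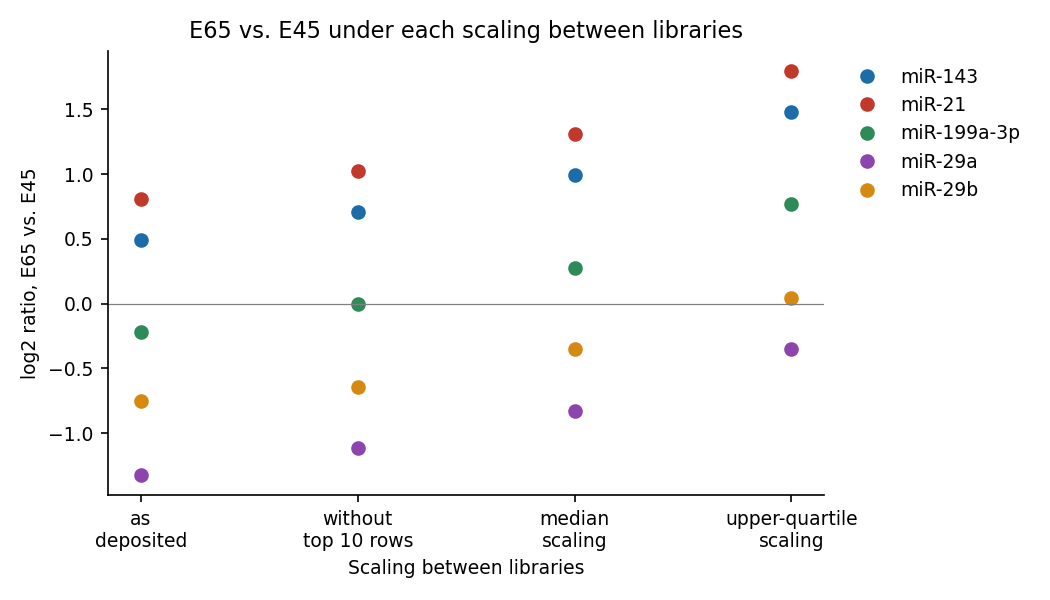
The log2 ratio of E65 vs. E45 for the 5 miRNAs under 4 scalings between libraries (points; grey line at 0). A scaling moves the members together, and miR-199a-3p and miR-29b, with upper-quartile scaling (0.05), cross 0 while miR-29a stays below it. The other scalings all raise the ratios, so miR-143 and miR-21, above 0 as deposited, could not cross it.

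Among the 24 rows with a mean of at least 10000 RPM, a limit chosen after the values were seen, miR-21 had the highest ratio in both comparisons with E65. miR-148a came next in E65 vs. E45, with a log2 ratio of 0.79, from 21200 RPM at E45 to 36720 at E65. In E55 vs. E45 miR-199a-3p had the 23rd of the 24 ratios, and only miR-374a, named here after its value was seen, was lower, at -0.64. miR-143 held the 12th, 9th and 5th place in the 3 comparisons.

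The nearest profiles were sought among the sheep-named rows with a mean of at least 10 RPM, by the Euclidean distance of log2 values centred on each row's mean over the 3 libraries. With only 3 libraries such a likeness is a description. Nearest to miR-143 were miR-191 (distance 0.0586; 809, 1021 and 1110 RPM at E45, E55 and E65), miR-22-3p (0.0935) and let-7a (0.177). Nearest to miR-21 were miR-23a (0.112; 6134, 5954 and 10682 RPM), miR-148a (0.195) and miR-27a (0.213), which is encoded beside miR-23a in mammalian genomes. Among the members themselves the closest pair was miR-143 with miR-21 (0.362) and the next was miR-29a with miR-29b (0.478), while miR-21 and miR-29a lay farthest apart (1.51). The mean profile of the 4 members with at least 10 RPM was closest to miR-30c (0.0238), let-7c (0.114), miR-99a (0.143), miR-30b (0.170) and miR-30a-5p (0.171). This mean profile ran only from -0.16 at E55 to 0.11 at E45 in centred log2 values, since the members' differences partly cancel in it.

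A list of 16 other miRNA names known to be abundant in fibroblasts and other mesenchyme had 12 rows. Their levels, in the order of stages, added up to 114357, 100754 and 135631 RPM, with miR-26a as the most abundant by the mean of the 3 libraries (42993, 44002 and 56714 RPM), followed by miR-181a (24808, 18192 and 27113 RPM), miR-10b (10310, 6049 and 11283 RPM) and miR-152 (8525, 9710 and 7255 RPM). In E55 vs. E45 their median log2 ratio was -0.15, with 3 of 12 rows above 0, where 35.4% of all rows were, and none past 2-fold. In E65 vs. E55 it was 0.52, with 10 of 12 above 0, where 41.3% of all rows were. The 2 rows past 2-fold, where 6.79% of all rows were higher by as much, were miR-221 (100 to 313 RPM) and miR-10a (1243 to 3057 RPM). In E65 vs. E45 the median was 0.26, with 9 of 12 above 0, where 29.2% of all rows were. Only miR-221 was past 2-fold, where 6.22% of all rows were higher by as much. Before the pseudocount is added, median scaling raises a log2 ratio of this comparison by 0.50 and upper-quartile scaling by 0.99, more than this median. The 2 rows of the list below 0 in E65 vs. E55 were miR-152 and miR-125b (8571, 5678 and 5230 RPM). Median scaling moves a log2 ratio of E55 vs. E45 by 0.39 before the pseudocount is added, more than the size of this list's median there, so no direction is read from that median. miR-221, miR-10a and miR-125b were named after their values were seen.

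Rows typical of other cell types show what else the pools held. Of 7 epithelial names, 3 were found, and their levels added up to 119, 198.99 and 759 RPM at the 3 stages. miR-200b, the most abundant, had 76.6, 121 and 451 RPM, miR-200c had 41.5, 77.6 and 307 RPM, and miR-200a had at most 3 reads in any library. Both rows with over 3 reads, miR-200b and miR-200c, were past 2-fold higher at E65 than at either earlier stage, where 6.79% (against E55) and 6.22% (against E45) of all rows were. The 5 mesenchymal rows together had 1103 times the RPM of the epithelial rows at E45, 693 times at E55 and 232 times at E65. In this ratio within each library the numerator includes miR-21, also an epithelial miRNA, and the denominator rests on 3 of 7 names. Unnamed rows may hold the epithelial names not found, so the ratio does not measure the part of epithelium in the pools. Of 7 muscle names only miR-133, a miRNA of striated muscle, had a row, with 3106, 6623 and 2013 RPM at the 3 stages, highest in the E55 library. Of 7 blood names only miR-150 had a row, with 15, 34 and 32 reads (6.11, 8.24 and 13.65 RPM). No row carried a name of the lists for neurons and glia (6 names), endothelium (miR-126), cartilage (miR-140) or liver (miR-122), and unnamed rows may hold them. The part of these cell types in the values of the 5 miRNAs was not tested. In such bulk samples a change in the number of cells of a type and a change in the miRNA per cell cannot be told apart.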

How the data were processed

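Skin of 3 embryos per stage was mixed, total RNA was extracted, and small RNA was ligated to adaptors, amplified, selected by size on a gel and sequenced on Illumina GAIIx and NextSeq instruments, without a record of which library ran on which. Per the labels, the authors aligned the reads with Bowtie; version, genome build, miRNA annotation and filters are not given in the sources used here. The deposited values are RPM over 649 rows (called TPM by the authors), and all columns are scaled to the same sum. Whole reads were recovered from the step of 1 read: 100% of 228, 216 and 256 low values at E45, E55 and E65 were whole within 0.1. As each stage has 1 library, no count test was run and it calls no row.

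All values were computed with Python 3.11.15, numpy 2.4.6, pandas 2.3.3, scipy 1.17.1 and edlib 1.3.9.post1, and plotted with matplotlib 3.10.9. Ratios used a pseudocount of 1 RPM, and ratio intervals used the reads without it. Every member was named. The other named rows were the 5 nearest to the mean profile, the 3 nearest to each of the 2 most abundant members, and at most 4 rows of a marker list, besides 5 rows named after their values were seen, as the text says. The recovery of reads and the intervals were checked on simulated tables. Members and lists were chosen with earlier results of these data known. The messenger RNA table was not used, because its gene identifiers carry no symbols and it holds no miRNA. RefSeq gave gene order only, as its assembly may not be the authors' build. Alternatives were other pseudocounts, a filter on low values, 3 other scalings and other ways to count rows.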

Additional observations from a re-analysis of the deposited data

How the results depend on the processing

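With 1 library per stage no library could be left out, and depth limited miR-29b most, with 7 to 18 reads. Of the 15 ratios of single members, 5 changed sign under median scaling, upper-quartile scaling or both, and they belonged to miR-199a-3p, miR-29a and miR-29b. Another pseudocount cannot change a sign. The other scalings all raise the ratios of every comparison, so only ratios below 0 on the deposited values could change sign. Before the pseudocount is added, a scaling moves all rows of a comparison alike, in E65 vs. E45 by 0.50 (median), 0.99 (upper quartile) and 0.22 (without the 10 most abundant rows) on the log2 scale, and rows with few reads such as miR-29b moved less.

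The median log2 ratio of the 5 members in E65 vs. E55 became 0.26 with a mean of at least 10 RPM, where miR-29b is left out, 0.31 with median scaling, 0.63 with upper-quartile scaling and 0.37 without the 10 most abundant rows. In E65 vs. E45 it became 0.14, 0.28, 0.77 and -0.0013 in the same order. In E55 vs. E45 it ran from -0.38 to 0.14, with a change of sign under median and upper-quartile scaling. In E65 vs. E45 the members called higher became 1 with median scaling, 2 with upper-quartile scaling and 1 without the 10 most abundant rows. The members called lower became 0 with the first 2 of these. In E65 vs. E55 upper-quartile scaling called 1 member higher. The share of all rows past 2-fold under these scalings is not given here, so these counts are no result about the group. Summing the reads per miRNA name and keeping the more abundant arm changed nothing, because each name has 1 row, nor did asking for over 3 reads in every library, as each row has at least 7. The ratio of hairpin arms was not run, as 0 members had both arms listed. No paired analysis was possible because each stage has 1 library.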
